A study of Mus musculus with 6 samples.

Results

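Antigen presentation by MHC class I was followed through 10 genes chosen by symbol: the heavy chains H2-K1 and H2-D1, the light chain B2m, the peptide transporter Tap1 and Tap2, tapasin (Tapbp), the immunoproteasome subunits Psmb8, Psmb9 and Psmb10, and the transactivator Nlrc5. All 10 were found among the 55401 gene rows of the count table. They were picked as named members of this pathway by symbol, with earlier results of these data known. The cells were ADC106, a mouse line from angiosarcoma, which is a cancer of the endothelium, grown in DMEM with serum. The 3 libraries of the NC group (genotype labelled WT) came from cells given 12.5 nM of a control mimic. The 3 libraries of the miR-497 group (genotype labelled miR-497 overexpression) came from cells given 12.5 nM of a miR-497 mimic, a synthetic RNA that supplies the mature microRNA. Poly(A)-enriched RNA was sequenced 3 days after transfection. All libraries came from 1 cell line, and the labels do not say whether the libraries of a group came from separate cultures. The p-values therefore measure only the spread between these libraries, which may be technical.

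Most nucleated cells display peptides of their own proteins on class I molecules, where CD8 T cells read them. The proteasome cuts proteins into peptides, the TAP transporter carries these into the endoplasmic reticulum, tapasin helps to load them onto a heavy chain paired with beta-2 microglobulin, and the complex moves to the surface. Interferons raise many of these genes together: immunosubunits then replace the constitutive catalytic subunits of the proteasome, and NLRC5 is recruited to class I promoters by the proteins bound there. Endothelial cells are known to raise this pathway when exposed to interferon.

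The mature microRNA is printed with its seed (bases 2 to 8) in capitals, because the seed defines the target sites searched for in the 10 genes. The gene for miR-497a-5p holds this sequence at chr11:70234730-70234751 on the plus strand (GRCm38.p6), and the sequences of it and of 2 relatives with the same seed are those of RefSeq.
mmu-miR-497a-5p: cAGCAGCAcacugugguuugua
mmu-miR-195a-5p: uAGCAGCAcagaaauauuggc
mmu-miR-16-5p: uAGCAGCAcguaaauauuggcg

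Seed-matched sites of at least 7 bases in the 3' UTR were present in 2 of the 10 genes, H2-D1 and Tap1. Both stretches are shown because they were the only such matches in the set, with the match in capitals. The H2-D1 match pairs with bases 2 to 8 of the microRNA and starts at base 206 of a 629-base 3' UTR. The Tap1 match pairs with the shorter core followed by A and starts at base 232 of 451.
H2-D1: catagccaacctTGCTGCTccagcca
Tap1: caccaacactgaGCTGCTAaatctcc
Of the 12859 tested genes with a 3' UTR, 28.1% held a site of these kinds. The other genes of the set held no site of at least 7 bases, though Psmb8 and Psmb9 each held 1 match to the shorter core alone. The part of such sites in the falls was not tested. A match describes the sequence only and does not show binding.

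The 6 libraries held between 25777676 and 36159499 counts each, and 14661 genes passed the filter on low counts. Levels are given in CPM, the count scaled to a common library size adjusted by TMM. The 10 genes took 0.063 to 0.0758% of the counts in NC libraries and 0.0384 to 0.0398% in miR-497 libraries. Mitochondrially encoded genes took 2.03 to 2.15% of counts with NC and 2.94 to 3.77% with miR-497, and the part of this difference in the results was not tested. B2m and Psmb10 were listed at 0 in all 6 libraries and were not tested. The same 0 in every library was listed for Rpl13, Rpl35, Eif3m and Cox4i1, genes that every cell uses (chosen after their values were seen), and for 5038 of 21897 protein-coding rows. The 0 of B2m and Psmb10 is therefore given as a listed value and not as absence of the RNA.

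With miR-497, all 8 tested genes of the set were lower at an edgeR adjusted p under 0.05, beside 26.0% of all tested genes called lower. Nlrc5, H2-K1, Psmb8 and Psmb9 were lower by at least 2-fold, beside 5.19% of all tested genes. For each of the 8, every miR-497 library lay below every NC library, a separation seen in 29.6% of tested genes. The median log2 fold change of the 8 was -0.99, against -0.02 over all tested genes. The falls ran from 1.49-fold for H2-D1 to 16.7-fold for Nlrc5. Within the NC group, replicate 3 was the lowest library for 8 of the 8 genes. The share of all tested genes with this order was not taken, so it is not read as particular to the set. In RNA from whole cultures, fewer expressing cells and less RNA per cell cannot be told apart.

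**Figure D1:**
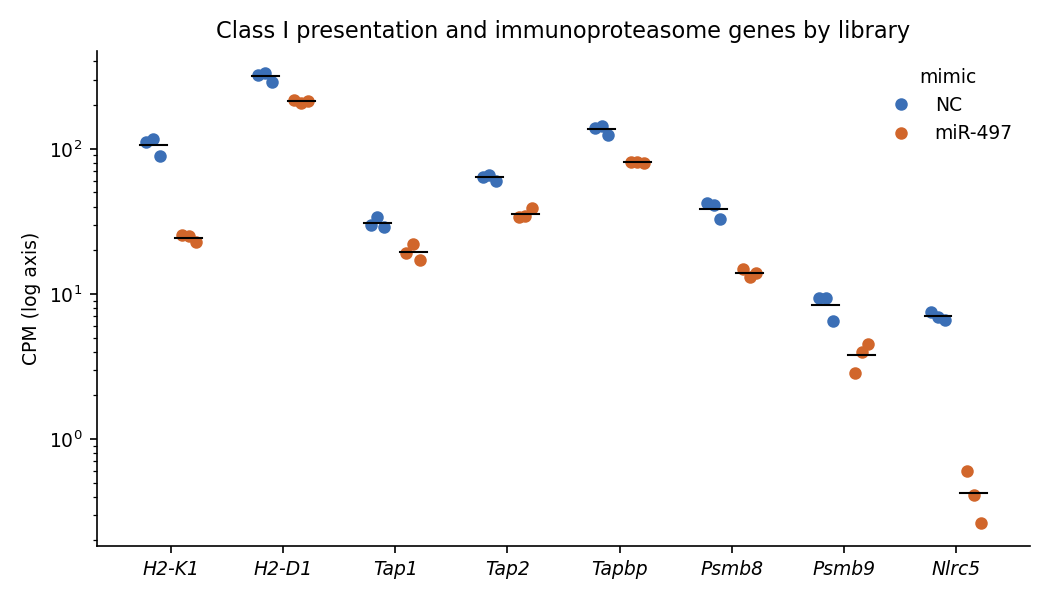
Level of each tested gene in every library, in CPM on a log axis, for the 3 NC and 3 miR-497 libraries. The miR-497 libraries lie below the NC libraries for all 8 genes, with the widest gap for Nlrc5.

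H2-K1 (ENSMUSG00000061232, chr17:33996017-34000347, minus strand) encodes a classical heavy chain, which holds the peptide and faces the T-cell receptor. It was read at 111.6, 116.9 and 89.3 CPM in NC libraries 1 to 3 and at 25.3, 24.9 and 22.8 CPM in miR-497 libraries 1 to 3. The groups were far apart and the miR-497 libraries were nearly level with each other. The mean went from 105.9 ± 14.7 to 24.4 ± 1.35 CPM (SD, n = 3 each), a log2 fold change of -2.12 (standard error 0.09; adjusted p = 1.6e-11, edgeR). Of all tested genes, 1.04% fell further than H2-K1.

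H2-D1 (ENSMUSG00000073411, chr17:35262730-35267499, plus strand), another classical heavy chain, had the highest CPM of the 8 tested genes. Its NC libraries held 323.9, 331.9 and 290.7 CPM and its miR-497 libraries 215.8, 208.4 and 213.2 CPM. All miR-497 libraries were lower, by less than for any other tested gene of the set. The mean moved from 315.5 ± 21.9 to 212.5 ± 3.75 CPM (SD, n = 3 each), and the log2 fold change was -0.57 (standard error 0.06; adjusted p = 3.4e-07, edgeR). The 95% interval of the log2 fold change was -0.69 to -0.45 for H2-D1 and -2.32 to -1.93 for H2-K1, so the intervals of these similar genes lay apart. Counts of H2-K1 divided by those of H2-D1 gave 0.344, 0.352 and 0.307 with NC, against 0.117, 0.12 and 0.107 with miR-497.

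Class I genes resemble each other, so reads may be exchanged between them. In the annotation, 9.63% of the 50-base stretches of H2-K1 exons and 12.8% of those of H2-D1 occurred in another gene, chiefly H2-Q genes and each other. How reads with several alignments were counted is not given in the sources used here, and the separate values of H2-K1 and H2-D1 are uncertain. These shares hold for the reference sequence only. The mouse strain of ADC106, and so its class I haplotype, is not given either, so the shares do not bound this uncertainty. When the counts of all 29 MHC-linked class I rows were summed, the NC libraries held 570.7, 588.7 and 501.1 CPM and the miR-497 libraries 294.5, 282.7 and 285.5 CPM. The sum fell by 0.94 on the log2 scale (standard error 0.06; adjusted p = 2.3e-09, edgeR), a fall smaller than that of H2-K1 and larger than that of H2-D1. Of the rows summed, 11 were listed at 0 in every library, among them H2-Q1, which shares stretches with H2-D1. Reads left uncounted for having several alignments would be missing from the sum too.

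Tap1, Tap2 and Tapbp fell by a similar amount, between 1.58-fold and 1.78-fold. Tap1 and Tap2 encode the subunits of the transporter that moves peptides into the endoplasmic reticulum. Tap1 (ENSMUSG00000037321, chr17:34187553-34197225) was read at 30.0, 33.7 and 28.8 CPM with NC and at 19.1, 22.2 and 17.2 CPM with miR-497, a log2 fold change of -0.66 (standard error 0.10; adjusted p = 2.7e-05, edgeR). Tap2 (ENSMUSG00000024339, chr17:34203527-34216321) was read at 64.3, 66.5 and 59.9 CPM and at 33.9, 34.3 and 39.0 CPM, a log2 fold change of -0.83 (standard error 0.07; adjusted p = 9.6e-08, edgeR). For both transporter genes the highest miR-497 library remained below the lowest NC library. Tapbp (ENSMUSG00000024308, chr17:33915899-33929292), whose product bridges the transporter to empty class I molecules, held 139.5, 144.7 and 124.1 CPM with NC and 81.2, 81.6 and 79.7 CPM with miR-497. Its log2 fold change was -0.75 (standard error 0.06; adjusted p = 2.9e-08, edgeR). The 95% intervals of the 3 genes overlapped: -0.87 to -0.45 for Tap1, -0.99 to -0.67 for Tap2 and -0.88 to -0.62 for Tapbp. Exons on the opposite strand covered 24.9% of the exon bases of Tapbp and 18.5% of those of Tap2. The share was 14.7% for Psmb8, 5.79% for Psmb9 and at most 3.87% for the other genes of the set. The strand setting of the counting is not given in the sources used here, so this caution holds for Psmb8 and Psmb9 too.

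Psmb8 and Psmb9, the tested immunosubunits, were lower by 2.78-fold and 2.22-fold. Psmb8 (ENSMUSG00000024338, chr17:34197721-34201454), the inducible counterpart of Psmb5, was read at 42.0, 41.1 and 32.6 CPM with NC and at 14.8, 13.1 and 13.9 CPM with miR-497. The groups did not overlap, and the log2 fold change was -1.47 (standard error 0.10; adjusted p = 3.4e-09, edgeR). Psmb9 (ENSMUSG00000096727, chr17:34181987-34187764), the inducible counterpart of Psmb6, was the less abundant of the pair. Its libraries held 9.38, 9.37 and 6.54 CPM with NC and 2.87, 3.97 and 4.53 CPM with miR-497, a log2 fold change of -1.15 (standard error 0.20; adjusted p = 0.00011, edgeR). The miR-497 libraries of Psmb9 spread more widely than those of Psmb8, and the 95% intervals of the log2 fold change, -1.57 to -0.74 and -1.69 to -1.26, overlapped. The interval of Psmb8 lay below those of Tap1, Tap2 and Tapbp, and that of Psmb9 overlapped all of them.

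The constitutive catalytic subunits, which the immunosubunits replace, moved less and in both directions. Psmb5 was higher with miR-497, going from 98.7 to 123.9 CPM on average (log2 fold change 0.33, edgeR adjusted p = 0.00024). Psmb6 was higher by 0.15 on the log2 scale (edgeR adjusted p = 0.035), and its libraries overlapped between groups. Psmb7, the counterpart of Psmb10, was lower by a log2 fold change of -0.31 (edgeR adjusted p = 0.00013). Beside these counts of higher genes, 23.8% of all tested genes were called higher. Of the 50-base stretches of Psmb5, 54.1% also occurred in other annotated loci, among them pseudogenes, so its count is uncertain.

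Because each immunosubunit takes the place of 1 constitutive subunit, their ratio was taken in each library, after division by transcript length. Psmb8 stood at 0.252, 0.214 and 0.183 of Psmb5 with NC, against 0.0637, 0.0611 and 0.0615 with miR-497. Psmb9 stood at 0.0216, 0.02 and 0.0156 of Psmb6 with NC, against 0.00573, 0.00853 and 0.00908 with miR-497. Both ratios were lower in every miR-497 library than in any NC library. The mean log2 ratio of Psmb8 to Psmb5 went from -2.22 ± 0.23 to -4.01 ± 0.032 (SD, n = 3 each), a 3.46-fold fall, with p = 0.1 in an exact 2-sided permutation test (0.1 after adjustment over both ratios). That of Psmb9 to Psmb6 went from -5.73 ± 0.25 to -7.03 ± 0.36 (SD, n = 3 each), a 2.48-fold fall, also with an exact permutation p = 0.1. This is the smallest p that 3 libraries against 3 can give, so the test could not pass 0.05. The ratio itself depends on the length used: with the union of annotated exons, a length chosen after seeing the data, the NC mean of Psmb8 to Psmb5 was 0.103, while the fold between groups does not depend on it. No ratio was formed for Psmb10, which was listed at 0.

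**Figure D2:**
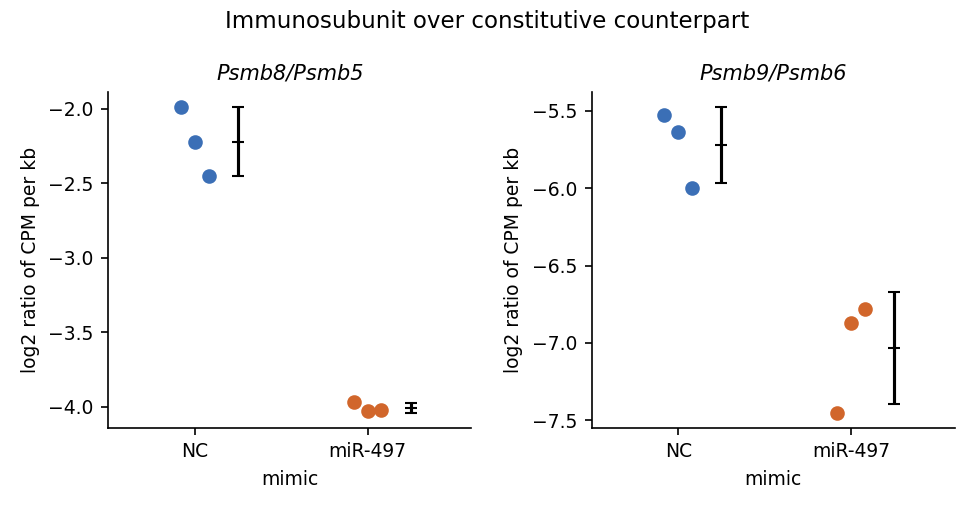
Log2 ratio of Psmb8 to Psmb5 and of Psmb9 to Psmb6 in each library, both scaled by transcript length, with group means. The miR-497 libraries lie below all NC libraries in both panels, at a mean of -4.01 against -2.22 for Psmb8 to Psmb5.

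Nlrc5 (ENSMUSG00000074151, chr8:94434356-94527272, plus strand) encodes the transactivator of class I genes, a member of the NLR family that also holds the class II transactivator Ciita. It was the lowest tested gene of the set in level and fell most. The NC libraries held 249, 251 and 186 counts and the miR-497 libraries 15, 13 and 8. In CPM these were 7.51, 6.88 and 6.61 against 0.597, 0.409 and 0.263. Every miR-497 library was more than 10-fold below every NC library. The log2 fold change was -4.06 (standard error 0.28, 95% interval -4.65 to -3.48; adjusted p = 3.6e-09, edgeR), and 0.171% of tested genes fell further. With so few counts left in the miR-497 libraries the size of the fall is less precise than for the other genes, as its SE shows. None of the 50-base stretches of Nlrc5 exons occurred in another gene.

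**Figure D3:**
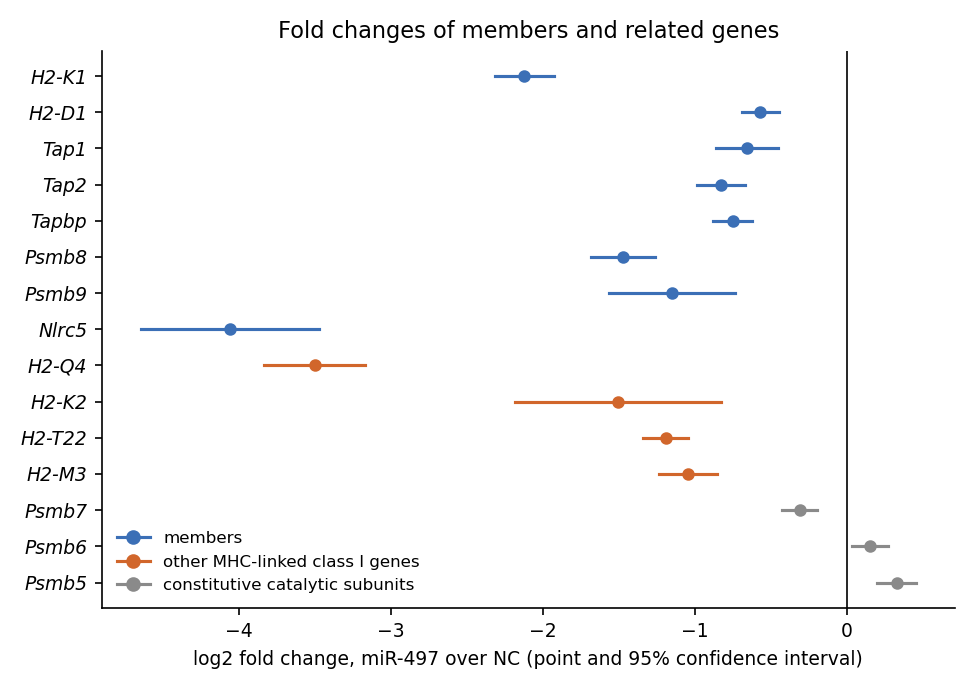
Log2 fold change, miR-497 over NC, with its 95% interval, of the 8 tested genes of the set, the other tested MHC-linked class I genes and the constitutive catalytic subunits. All 8 intervals of the set lie below 0, with fold changes from -4.06 for Nlrc5 to -0.57 for H2-D1. Those of the other class I genes and Psmb7 lie below 0 too, and those of Psmb5 and Psmb6 above 0.

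The order of the levels of the 8 tested genes also changed between the groups. Per kilobase of the principal transcript, H2-D1 led in both groups, at 150 ± 10.4 CPM per kb with NC and 101 ± 1.79 with miR-497 (SD, n = 3 each). H2-K1 stood second with NC, at 65.4 ± 9.05 CPM per kb, above Tapbp at 47.0 ± 3.7. With miR-497 H2-K1 came next after Tapbp, at 15.04 ± 0.834 CPM per kb against 27.9 ± 0.347. The place of H2-K1 between H2-D1 and Tapbp was thus lost with miR-497. Psmb8 stood above Tap2 with NC, at 23.7 ± 3.2 against 18.5 ± 0.974 CPM per kb, and below it with miR-497, at 8.55 ± 0.516 against 10.4 ± 0.826. Tap1 followed at 10.4 ± 0.857 and 6.61 ± 0.854, then Psmb9 at 6.23 ± 1.21 and 2.8 ± 0.626, and Nlrc5 came last at 0.923 ± 0.0614 and 0.0558 ± 0.0221 CPM per kb. In both groups, the libraries of genes next to each other in this order did not overlap. The order rests on the length chosen: per kilobase of the union of annotated exons, H2-K1 with NC was at 36.0 CPM per kb beside Tapbp at 37.5, and Psmb8 at 11.4 was below Tap2 at 16.8.

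The other MHC-linked class I genes, mostly non-classical heavy chains, were lower as well. Of 30 listed, 27 had a row, 11 rows were listed at 0, and 4 were tested, all of them lower, beside 26.0% of all tested genes. H2-Q4 went from 26.6, 26.8 and 19.5 CPM with NC to 1.75, 2.2 and 2.43 CPM with miR-497, a log2 fold change of -3.50 (standard error 0.16; adjusted p = 2.8e-11, edgeR). H2-T22, an unconventional class I molecule seen by some gamma-delta T cells, went from 76.2 ± 4.3 to 33.4 ± 2.05 CPM (SD, n = 3 each). H2-M3, which presents formylated peptides, went from 26.8 ± 1.03 to 13.0 ± 0.842 CPM. H2-K2 was low throughout, at 3.31 CPM with NC and 1.16 with miR-497. For each of these genes every miR-497 library lay below every NC library, a separation seen in 29.6% of tested genes. The caution on similar sequences holds for these genes too.

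Class I-like genes that lie outside the MHC moved mostly the other way. Of 6 listed, 5 were tested, 1 was lower and 3 were higher, beside 26.0% and 23.8% of all tested genes. Mr1, which presents vitamin B metabolites, rose from 29.4, 26.9 and 29.0 CPM to 59.2, 58.4 and 60.1 CPM (log2 fold change 1.06, standard error 0.07; adjusted p = 2.2e-09, edgeR). Cd1d1, which presents lipids, rose from a mean of 6.56 to 16.4 CPM, and Fcgrt, the neonatal Fc receptor heavy chain, from 6.87 to 13.1 CPM. Hfe, a regulator of iron uptake, was lower, at 30.5 CPM with NC and 21.4 with miR-497 (log2 fold change -0.51). Cd1d2 did not pass the test. These proteins pair with beta-2 microglobulin as H2-K1 does, yet the direction of their RNA differed from gene to gene.

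Class II genes were read at low levels in both groups. Of 11 genes, 3 were listed at 0 and 4 were tested, with no mean above 2.87 CPM. H2-DMb1, a class II peptide-exchange factor, was lower, at 0.871 CPM with NC and 0.17 with miR-497 (log2 fold change -2.33, standard error 0.58; adjusted p = 0.0029, edgeR). Ciita had 1, 4 and 1 counts with NC and 2, 0 and 4 with miR-497, so a difference was not detectable at this depth. Cd74, the class II invariant chain, had 5 to 16 counts with NC and 1 to 4 with miR-497.

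Among the enzymes and chaperones that prepare peptides and load class I molecules, Erap1 alone was called lower. Of 6 genes for peptide trimming and loading, 5 were tested: 1 was lower, 1 was higher and 3 did not pass the test, while Tapbpl was listed at 0. The shares over all tested genes were 26.0% lower and 23.8% higher. Erap1, the aminopeptidase that trims peptides in the endoplasmic reticulum, went from 114.7 ± 3.98 to 85.3 ± 4.65 CPM (SD, n = 3 each), a log2 fold change of -0.43 (standard error 0.06; adjusted p = 1.1e-05, edgeR). Uggt1, a folding sensor, was higher by 0.16 on the log2 scale (edgeR adjusted p = 0.044), and its libraries overlapped between groups. Calr, Canx and Pdia3, which help many glycoproteins to fold, had log2 fold changes of 0.08, 0.01 and 0.13. With upper-quartile scaling, 3 genes of this list were higher, Calr and Pdia3 being added.

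Among proteasome activators and the assembly factor Pomp, 3 of 5 were lower and 1 was higher, beside 26.0% and 23.8% of all tested genes. Psme1 and Psme2 encode the interferon-inducible PA28 ring, which opens the core for peptide production. Psme2 went from 92.6, 101.7 and 90.3 CPM to 66.2, 58.1 and 63.8 CPM, a log2 fold change of -0.60 (standard error 0.07; adjusted p = 1.3e-06, edgeR). Psme1 was lower by less, with a log2 fold change of -0.30 (edgeR adjusted p = 0.0027). Psme3, a nuclear activator, was lower by a log2 fold change of -0.19 (edgeR adjusted p = 0.016), Psme4 was higher by 0.18 (edgeR adjusted p = 0.0084) and Pomp did not pass the test. The remaining genes of the 20S core were called higher more often than lower. Of 11 tested, 1 was lower and 5 were higher, beside the same 26.0% and 23.8%, and the median log2 fold change was 0.14. The rises were led by Psma7 at a log2 fold change of 0.45 and by Psmb4 and Psma5 at 0.35 each, followed by Psmb3 at 0.33. The gene called lower was Psmb1, an accessory beta subunit chosen here after its value was seen, at a log2 fold change of -0.17. With upper-quartile scaling none of the 11 was lower and 7 were higher.

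The factors that sit on the class I promoter boxes changed by at most 0.39 on the log2 scale. Of 8 genes for the RFX, CREB/ATF and NF-Y proteins, 3 were lower, 1 was higher and 4 did not pass the test. Of all tested genes, 26.0% were lower and 23.8% higher. Nfya changed most, from 121.9 ± 1.49 to 93.1 ± 4.47 CPM (SD, n = 3 each), a log2 fold change of -0.39 (standard error 0.05; adjusted p = 1.5e-05, edgeR). Nfyc and Atf1 were lower by log2 fold changes of -0.18 and -0.17, and Nfyb was higher by 0.30. Both small falls lost their call with upper-quartile scaling (that of Nfyc with DESeq2 size factors too), which called 1 gene of the list lower and 2 higher. Rfx5, Rfxap and Rfxank, the subunits of the RFX complex that recruits NLRC5, did not pass the test, with log2 fold changes of -0.16, -0.18 and 0.06.

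Genes of interferon and NF-kappaB signalling were called in both directions, with larger falls than rises. Of 22 such genes, 19 were tested, 8 were lower, 8 were higher and 3 did not pass the test. Over all tested genes, 26.0% were lower and 23.8% higher. Falls in this list reached -2.87 on the log2 scale, while no rise exceeded 0.42. Irf7, an interferon-regulated transcription factor, went from 77.4, 88.4 and 72.6 CPM with NC to 10.15, 12.3 and 10.04 CPM with miR-497, a log2 fold change of -2.87 (standard error 0.10; adjusted p = 8.3e-13, edgeR). Stat2 and Irf9, parts of the type I interferon transcription complex, had log2 fold changes of -1.99 and -1.21. The miR-497 libraries of these 3 genes lay well below the NC libraries. Irf1, a direct activator of Tap1 and Psmb9 and chosen here after its value was seen, had a log2 fold change of -0.54 (edgeR adjusted p = 2.5e-05). The receptor chains Ifnar1, Ifnar2, Ifngr1 and Ifngr2, chosen in the same way, were higher, by 0.18 to 0.37 on the log2 scale. Ifng and Irf8 were listed at 0, and Ifnb1 had 9, 26 and 4 counts with NC and 0, 7 and 0 with miR-497, too few to be tested.

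**Figure D4:**
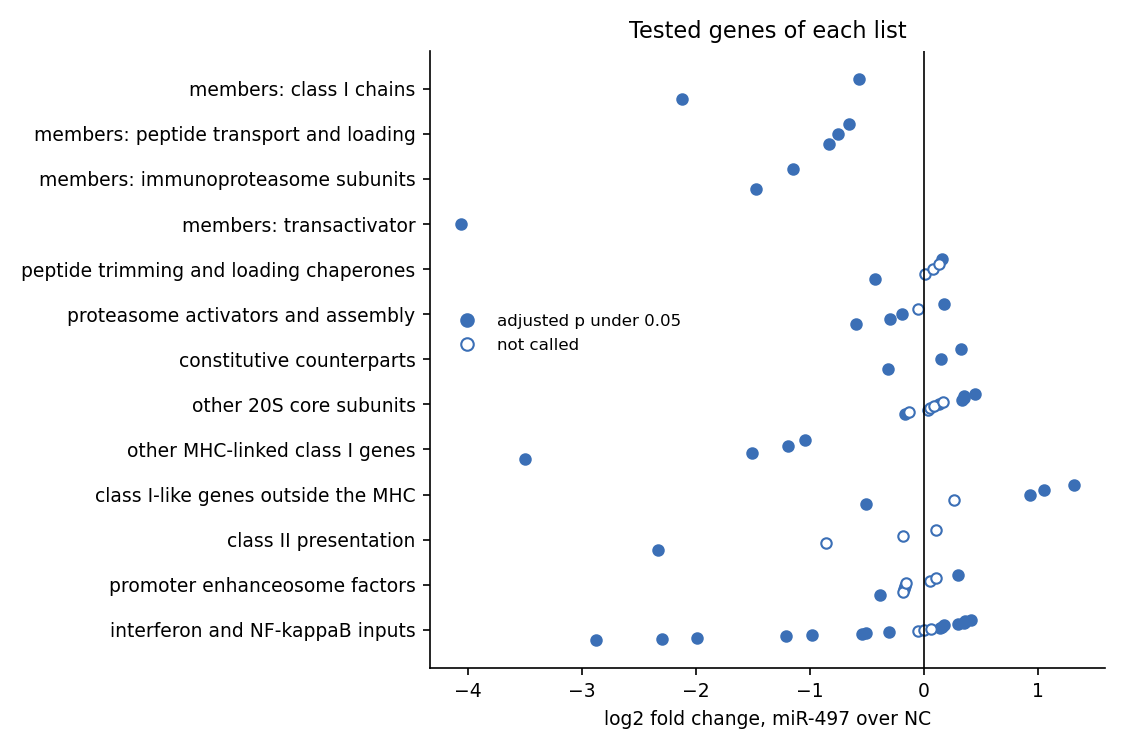
Log2 fold change, miR-497 over NC, of every tested gene in each list; filled points passed an edgeR adjusted p of 0.05 and open points did not. The genes of the set and the other MHC-linked class I genes lie left of 0, and the 20S core subunits, chaperones and promoter factors lie between -0.43 and 0.45.

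Apart from B2m on chromosome 2 and Psmb10 and Nlrc5 on chromosome 8, the genes of the set lie in the MHC on chromosome 17. Psmb9, Tap1, Psmb8 and Tap2 stand within 34.3 kb of each other, at chr17:34181987-34216321. The stretch from Tapbp to H2-D1, at chr17:33915899-35267499, was chosen after seeing the data and covers 1351.6 kb. It holds 7 genes of the set that were tested, all lower, and the class I gene H2-K2. Of the 61 other tested genes in the stretch, 14 were lower, 12 were higher and the median log2 fold change was -0.10. Lower by at least 2-fold among these 61 were H2-DMb1 and the pseudogene Btnl7-ps, both named after their values were seen. Of all tested genes, 5.19% were lower by at least 2-fold. The remaining 35 of the 61 did not pass the test, and over all tested genes 26.0% were lower and 23.8% higher.

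**Figure D5:**
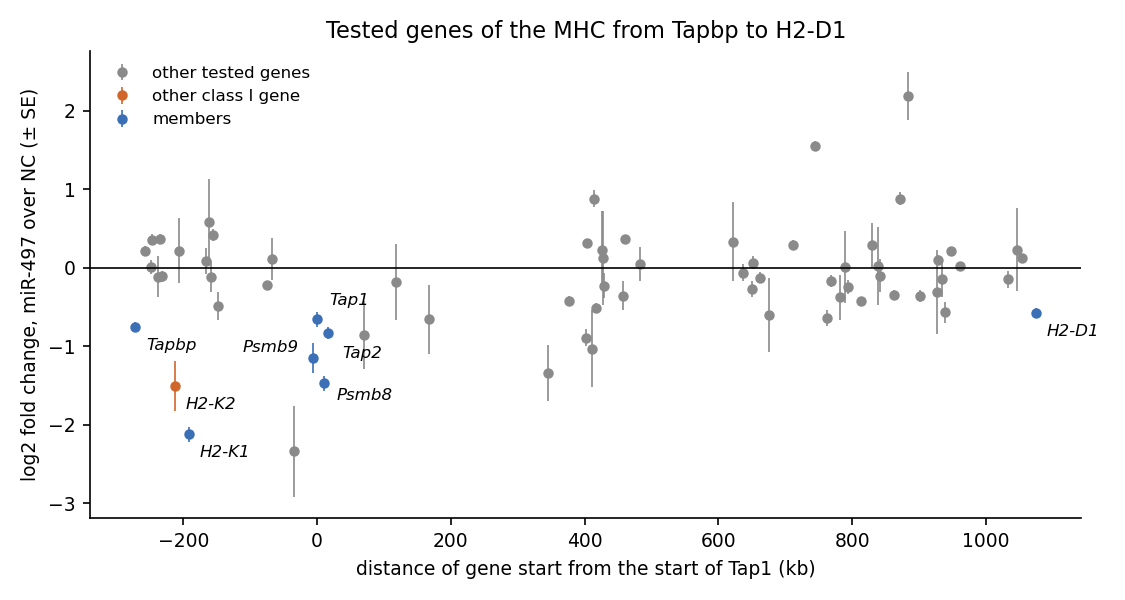
Log2 fold change with SE of each tested gene between Tapbp and H2-D1, against the distance of its start from that of Tap1 in kilobases. The genes of the set all lie below 0, while the 61 other genes lie on both sides.

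Promoter windows from RefSeq (GRCm38.p6; 250 bases before to 50 after the start) were found for 8 of the 10 genes, all but Tap2 and Nlrc5. The windows of both heavy chains, of Tap1 and of Psmb8 are shown to set the near-identical boxes of the heavy chains beside the windows of a transporter gene and an immunosubunit, all 4 genes being called lower. Motif matches on either strand are in capitals. The motifs searched were the NF-kappaB motif, the CCAAT box, the CRE half-site TGACG, the interferon-stimulated element GAAANNGAAA and the gamma-activated element TTCNNNGAA.
H2-K1, chr17:34000284-34000583, minus strand: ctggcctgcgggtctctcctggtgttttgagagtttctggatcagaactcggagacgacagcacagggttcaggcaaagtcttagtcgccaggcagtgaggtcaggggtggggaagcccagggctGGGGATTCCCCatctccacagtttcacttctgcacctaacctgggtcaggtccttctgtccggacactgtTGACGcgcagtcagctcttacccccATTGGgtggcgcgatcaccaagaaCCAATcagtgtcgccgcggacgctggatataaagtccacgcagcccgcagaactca
H2-D1, chr17:35262844-35263143, plus strand: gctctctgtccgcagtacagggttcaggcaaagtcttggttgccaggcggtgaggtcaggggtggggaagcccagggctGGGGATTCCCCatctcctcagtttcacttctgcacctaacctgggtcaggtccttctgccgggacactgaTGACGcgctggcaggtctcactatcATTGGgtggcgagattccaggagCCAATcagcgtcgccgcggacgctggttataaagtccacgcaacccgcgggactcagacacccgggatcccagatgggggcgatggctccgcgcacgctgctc
Tap1, chr17:34187306-34187605, plus strand: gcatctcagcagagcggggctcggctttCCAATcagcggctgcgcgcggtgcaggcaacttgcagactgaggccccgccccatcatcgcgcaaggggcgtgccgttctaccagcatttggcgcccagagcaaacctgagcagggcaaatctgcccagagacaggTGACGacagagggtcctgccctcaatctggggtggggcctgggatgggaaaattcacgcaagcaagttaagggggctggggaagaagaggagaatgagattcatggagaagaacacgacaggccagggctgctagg
Psmb8, chr17:34197945-34198244, plus strand: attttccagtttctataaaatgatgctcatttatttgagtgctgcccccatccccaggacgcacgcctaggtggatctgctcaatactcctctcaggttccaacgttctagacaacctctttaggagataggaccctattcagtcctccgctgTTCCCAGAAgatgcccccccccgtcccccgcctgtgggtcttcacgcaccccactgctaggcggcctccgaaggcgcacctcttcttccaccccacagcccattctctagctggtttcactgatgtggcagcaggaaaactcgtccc

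H2-K1 and H2-D1 carry the same boxes in the same order: an NF-kappaB match, read on both strands at overlapping positions, then TGACG, then a pair of CCAAT boxes in opposite orientation. From the NF-kappaB match to the last CCAAT box before the start, 108 of 124 aligned positions were identical (87.1%), while the fall of the 2 genes differed as given. Tap1 held a CCAAT box and TGACG, and Psmb8 held a gamma-activated element. Among the 8 genes with a window, CCAAT was found in 6, TGACG in 5 and the NF-kappaB motif in 3 (B2m, H2-D1 and H2-K1). Among all 32851 windows of the same length, 37.4% held CCAAT, 20.8% TGACG and 8.46% the NF-kappaB motif. An exact match to TTCNNNGAA, the gamma-activated element as searched, was in 8.3% of all windows and, among these genes, in Psmb8 only. An exact match to GAAANNGAAA, the interferon-stimulated element as searched, was in 3.44% and, among these genes, in B2m only. Other forms of these elements were not searched, so the heavy-chain windows may hold them. The starts of Tap1 and Psmb9 face away from each other with 225 bases between them, so their windows share 275 bases and their matches are not independent. A match is a description of these letters, and a window without one says nothing of the factor or of another form of its element.

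The genes whose 6 library values came closest to the median profile of the set were found by Euclidean distance on the log2 CPM scale, each value taken minus the NC mean of its gene. They were Crlf2, a cytokine receptor chain (distance 0.0906), Ppp1r12c, a myosin phosphatase subunit (0.124), Zgrf1 (0.13), Egfl7, a secreted endothelial protein (0.139), and Fndc4 (0.163). Their log2 fold changes lay between -1.01 and -0.94, near the median of the set, since the measure picks genes of that fall.

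The cell type markers were read beside these results. All 10 endothelial markers were tested, and their summed level was 9340 to 10020 CPM with NC and 8931 to 9437 CPM with miR-497, with 2 lower (Pecam1 and Eng, log2 fold changes -0.52 and -0.39) and 6 higher, led by Emcn at 1.03 and Vwf at 0.80. Of 8 leukocyte markers, 4 were listed at 0, among them Cd3e, Itgam and Nkg7, and Ptprc, which marks all leukocytes, had 4 to 7 counts in each library. The tested leukocyte markers summed to 9.2 to 9.47 CPM with NC and 15.6 to 20.7 CPM with miR-497, nearly all of it Cd68, which rose by 1.08 on the log2 scale. The tested fibroblast markers summed to 279.1 to 300.3 CPM with NC and 436.7 to 523.6 CPM with miR-497. Of these, 2 were higher (Col1a1 and Col1a2), 1 was lower (Pdgfrb, log2 fold change -0.37) and Pdgfra was not called. Lum was listed at 0, and Dcn had 2, 4 and 1 counts with NC and 4, 0 and 0 with miR-497, too few to be tested. No epithelial marker had more than 14 counts in any library. Over all tested genes, 26.0% were called lower and 23.8% higher. The part of these marker shifts in the fall of the class I genes was not tested.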

How the data were processed

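Poly(A)-enriched RNA of 6 libraries was analysed from the raw read counts per gene that the authors deposited, which are whole numbers with no normalization. GRCm38, STAR 2.5.4b, featureCounts, Subread 1.6.1 and edgeR 3.32.1 are named, without their roles, per the submitters' processing notes. The strand setting and the handling of reads with several alignments are not given in the sources used here. Groups and replicate numbers came from the sample titles. GENCODE M21 (GRCm38) gave a symbol for 55141 of 55401 rows, matched by gene identifier, and all gene coordinates.

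Genes were filtered with filterByExpr (minimum count 10, minimum total 15), scaled by TMM and tested with edgeR 4.0.16 in R 4.3.3 (quasi-likelihood F-test, group as the only term, all 6 libraries). Tests were 2-sided, and the Benjamini-Hochberg adjustment ran over the 14661 tested genes, with a threshold of 0.05. No p was adjusted over a list alone. A gene's standard error was its log2 fold change divided by the square root of F. Intervals are at 95%. Levels per kilobase used the principal coding transcript of M21. Ratios between subunits were compared by exact permutation over libraries after a count of 0.5 was added. The ratio of Psmb10 to Psmb7 had been planned and could not be formed, so p was adjusted over 2 ratios. The scripts were tested on simulated data.

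The members and lists were chosen with earlier results of these data known. Named were all 10 genes, up to 4 called genes with the largest change in each list, the constitutive counterparts, and the 5 genes nearest to the median profile among those with a mean log2 CPM of at least 2. Other genes are marked as chosen after their values were seen. The results of 2 genes of the lists are not reported here one by one, though the counts of their lists include them. Alternatives were DESeq2 1.42.0 size factors and its Wald test, upper-quartile scaling, limma 3.58.1 voom, other filters, the replicate number as a block, each library left out, the sum of class I genes, another added count and another gene length. Promoters and microRNAs were taken from RefSeq tables. Python 3.11.15 was used for the lists, the motifs and the plots.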

Additional observations from a re-analysis of the deposited data

How the results depend on the processing

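All 8 tested genes of the set were called lower in each of the 13 refits across all genes: DESeq2 size factors, upper-quartile scaling, both filters, the DESeq2 Wald test, limma voom, the replicate block and each library left out. The largest adjusted p over these was 0.0008. Genes called lower ranged from 3374 to 3995 and genes called higher from 3029 to 3998, and upper-quartile scaling gave 3422 lower and 3998 higher. Scaling by the upper quartile moved the median log2 fold change of all tested genes from -0.02 to 0.03. Leaving out a library kept the log2 fold change of Nlrc5 between -4.36 and -3.81. It kept the difference in log2 ratio of Psmb8 to Psmb5 between -1.90 and -1.67, and that of Psmb9 to Psmb6 between -1.45 and -1.10. Libraries with equal numbers did not deviate together (correlations -0.119, -0.0351 and -0.133). This cannot show whether they were prepared together, and the numbers are used here to name libraries only. With the replicate block, 3563 genes were lower, 3177 were higher and 8 genes of the set were lower, while the subunit ratios had an exact permutation p = 0.25, the smallest possible within pairs. The union exon length was chosen after seeing the data. The depth limits Nlrc5 in the miR-497 group and the class II genes.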
